A study of Mus musculus with 4 samples.

Results

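The NRF2 and glutathione antioxidant genes comprised 10 genes, taken from a table of 13903 genes by their names: Nfe2l2, Keap1, Nqo1, Gclc, Gclm, Srxn1, Txnrd1, Txn1, Hmox1 and Slc7a11. All 10 were in the table, and all 10 averaged 10 CPM or more across the libraries, as did 8963 of all genes. CPM is the number of reads of a gene per 1000000 reads in its library. The mRNA came from liver tissue of OGT-Floxed mice of C57BL/6J background, and every mouse was fed the CDE diet, a choline-deficient, ethionine-supplemented food that injures hepatocytes. Mice labelled OGT-KO received AAV8-TBG-CRE and mice labelled control received AAV8-TBG-eGFP. AAV8 is a viral vector with a preference for liver, and the TBG promoter is active in hepatocytes, so that Ogt, which encodes O-GlcNAc transferase, stays intact in the other cells of the liver. Tissue was collected with no recovery from the diet or 7 days into recovery. A single library pooled RNA from 3 mice in each of the 4 conditions (1 library each), so there was no replicate error and no test between conditions. The age and sex of the mice and the length of the diet were not given in the sources used here.

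NRF2, the product of Nfe2l2, is a transcription factor that KEAP1 holds in the cytoplasm and passes to the proteasome. Oxidants and electrophiles modify cysteines of KEAP1, after which NRF2 accumulates, enters the nucleus with a small MAF protein and binds antioxidant response elements near genes of glutathione synthesis, thioredoxin reduction, quinone reduction and NADPH supply. In liver this pathway is known for the detoxification of drugs and other reactive compounds.

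On GRCm38 (GENCODE M21), the regulators Nfe2l2 and Keap1 lie at chr2:75675513-75704641 and chr9:21229730-21239361, both on the minus strand. The glutathione genes Gclc, Gclm and Slc7a11 lie at chr9:77754535-77794485 (plus), chr3:122245557-122270732 (plus) and chr3:49892526-50443614 (minus). Srxn1, Txnrd1 and Txn1 of the thioredoxin and peroxiredoxin system lie at chr2:152105516-152111376 (plus), chr10:82833951-82897712 (plus) and chr4:57943373-57956411 (minus), and Nqo1 and Hmox1 at chr8:107388225-107403206 (minus) and chr8:75093621-75100589 (plus).

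The library totals ran from 19972699 to 22866431 reads on the listed genes, which puts the floor of 3 reads at 0.131 to 0.150 CPM. The label check was weak. Ogt had 1375 reads in the control-labelled library and 1265 in the OGT-KO-labelled library with no recovery, a ratio of 0.855 (95% counting interval 0.792 to 0.924). After 7 days it had 1112 and 1753 reads, a ratio of 1.40 (1.29 to 1.51), which goes against the label at the deposited scaling. All directions are therefore between OGT-KO-labelled libraries and control-labelled libraries. The median gene also differed between the labels, by 0.51 with no recovery and 0.48 after 7 days on the scale of log2(CPM + 1), and the 100 highest genes held 34.1% and 34.3% of the reads in the OGT-KO-labelled libraries against 42.8% and 45.0% in the controls. Differences are given as deposited and, where it matters, less this median. Less this median, Ogt differed by -0.73 with no recovery and by -0.005 after 7 days, level with the median gene rather than lower. Median-ratio scaling, which sets the libraries level by their typical gene rather than by their totals, moved the differences furthest of the scalings tried. Intervals and floors cover counting error only, and differences on the log2(CPM + 1) scale understate the change of low genes.

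Promoter sequences were read from the mouse GRCm38.p6 RefSeq table (250 bases before to 50 after each start), which matched 8 of the 10 genes, all but Gclc and Hmox1. The pair shown at length, 250 bases up to the start, belongs to the genes with the largest differences between the labels. In the promoter of Srxn1 (chr2:152105274-152105523, plus strand), capitals mark TGANTCAGC, a form of the antioxidant response element and of related MAF-binding sites, which begins at base -45 from the start.

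Srxn1: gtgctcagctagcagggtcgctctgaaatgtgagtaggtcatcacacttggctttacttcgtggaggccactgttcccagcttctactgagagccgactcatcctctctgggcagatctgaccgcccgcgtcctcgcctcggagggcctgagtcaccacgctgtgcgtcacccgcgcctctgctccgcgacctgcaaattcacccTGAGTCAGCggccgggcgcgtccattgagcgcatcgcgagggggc

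In the promoter of Slc7a11 (chr3:50443614-50443863, minus strand), capitals mark TGATGCAA, the letters of an amino acid response element, at base -66 on the same strand and again, as its reverse complement, at base -47.

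Slc7a11: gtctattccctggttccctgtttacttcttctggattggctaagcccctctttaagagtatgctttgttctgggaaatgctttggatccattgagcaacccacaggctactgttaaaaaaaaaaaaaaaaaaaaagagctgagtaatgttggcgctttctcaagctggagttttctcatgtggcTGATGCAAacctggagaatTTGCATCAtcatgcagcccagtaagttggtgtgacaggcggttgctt

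The core of the antioxidant response element, TGACNNNGC, was searched on both strands. It was held by the windows of Nfe2l2 (base -240), Gclm (base -134, opposite strand) and Srxn1 (base 29, opposite strand), and by 1 window of Txnrd1 (base -92, opposite strand). The matches before the start are shown with their surroundings because these genes differ in how they behaved. As deposited, Nfe2l2 was over 2-fold higher in the OGT-KO-labelled libraries, Txnrd1 just under 2-fold, and Gclm was not.

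Nfe2l2 (chr2:75704883-75704913, minus strand): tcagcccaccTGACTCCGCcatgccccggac
Gclm (chr3:122245411-122245443, plus strand): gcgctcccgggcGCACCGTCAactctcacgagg
Txnrd1 (chr10:82859102-82859134, plus strand): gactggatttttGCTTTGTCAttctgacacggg

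Of 32851 mouse promoter windows of the same length, 12.4% held TGACNNNGC, 1.19% held TGANTCAGC and 0.895% held TGATGCAA, on either strand. The first and second motifs overlap where the free base of TGANTCAGC is C, and the second and the last were added after the windows had been read. A match describes these letters only, and the antioxidant response elements of several of these genes are known to lie farther from the start than the window reaches.

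In the OGT-KO-labelled libraries, 6 of the 10 genes were at least 2-fold higher than in control at both times: Slc7a11, Srxn1, Nqo1, Hmox1, Nfe2l2 and Gclc. None was at least 2-fold lower. Slc7a11 and Nqo1 were under 10 CPM in both controls, passed the filter through the OGT-KO-labelled libraries and had to be higher. The filter thus fixed part of this count. Of all 8963 genes compared, 24.4% were at least 2-fold higher and 5.69% lower with no recovery, 22.9% higher and 4.27% lower after 7 days, and 19.2% higher and 3.74% lower at both times. The median of the 10 genes was a log2 difference of 1.47 with no recovery and 1.44 after 7 days. The plot of levels by library shows the genes side by side.

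**Figure D1:**
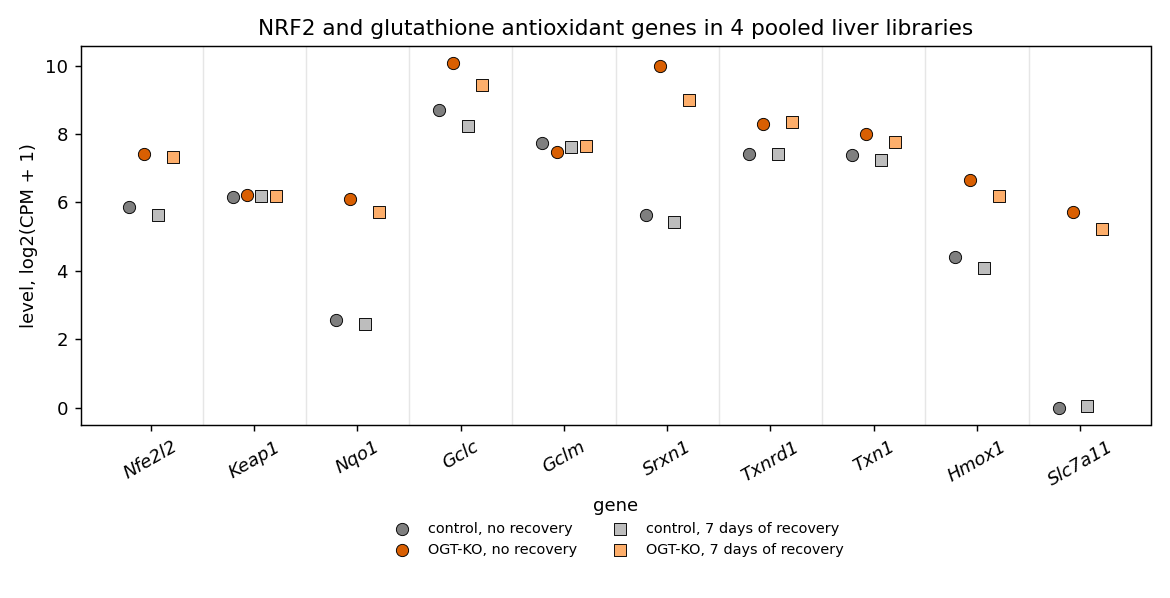
Level of each of the 10 genes in the 4 libraries as log2(CPM + 1), with grey points for control, orange points for OGT-KO, circles for no recovery and squares for 7 days of recovery (1 pooled library of 3 mice per point). Slc7a11 had 0 and 1 read in the controls, Keap1 lay between 70.8 and 74.0 CPM in every library, and Srxn1 was the gene that differed most between the OGT-KO-labelled libraries.

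Nfe2l2, which encodes NRF2 itself (ENSMUSG00000015839), was higher under the label OGT-KO. It was at 57.0 CPM in control and 171 CPM in the OGT-KO-labelled library with no recovery, and at 48.5 and 160 CPM after 7 days. The log2 differences were 1.57 and 1.70, and the ratios of reads 3.00 (2.81 to 3.21) and 3.29 (3.06 to 3.54). Less the median gene, the differences were 1.06 and 1.22. With median-ratio scaling they were 0.86, below 2-fold, and 1.02.

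Keap1, the inhibitor (ENSMUSG00000003308), was nearly level across the libraries at the deposited scaling. It was at 70.8 CPM in control and 74.0 CPM in the OGT-KO-labelled library with no recovery, and at 71.4 and 72.6 CPM after 7 days, with ratios of 1.04 (0.974 to 1.12) and 1.02 (0.947 to 1.09). Both intervals include 1. Since the median gene was higher under the label OGT-KO, Keap1 was 0.45 below it on the log2 scale at both times, and its differences of 0.06 and 0.02 became -0.65 and -0.65 with median-ratio scaling.

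The ratio of Nfe2l2 to Keap1 reads within a library does not depend on scaling. It was 0.805 (0.745 to 0.868) in control and 2.31 (2.18 to 2.45) in the OGT-KO-labelled library with no recovery, and 0.680 (0.626 to 0.738) and 2.20 (2.07 to 2.33) after 7 days. Controls were thus below 1 and the OGT-KO-labelled libraries above it. Against Bach1, which encodes a repressor that competes with NRF2 at its elements, Nfe2l2 stood at 1.30 and 3.61 with no recovery and at 1.25 and 3.71 after 7 days. Bach1 itself was at 43.8 and 47.4 CPM with no recovery and at 38.9 and 43.0 CPM after 7 days.

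Among the targets, Nqo1 (ENSMUSG00000003849), which encodes a reductase of quinones and is a standard readout of NRF2, was low in the controls and well above them under the label OGT-KO. It had 4.94 CPM in control and 67.3 CPM in the OGT-KO-labelled library with no recovery, and 4.46 and 51.7 CPM after 7 days. The ratios were 13.6 (11.2 to 16.8) and 11.6 (9.34 to 14.6), and the log2 differences 3.52 and 3.27. In order of the label difference it stood at place 137 and place 269 of the 8963 genes. Both controls were under 10 CPM, so Nqo1 was compared through the OGT-KO-labelled libraries and had to stand among the higher genes. Its paralogue Nqo2 encodes a related reductase that uses another cofactor. There were 0.0574 Nqo1 reads for each Nqo2 read in control and 1.36 in the OGT-KO-labelled library with no recovery, and 0.0560 and 0.741 after 7 days.

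The glutathione genes differed unequally between the labels. Glutamate-cysteine ligase, the enzyme of the rate-limiting step of glutathione synthesis, has a catalytic subunit from Gclc and a modifier subunit from Gclm. Gclc (ENSMUSG00000032350) was at 412 CPM in control and 1072 CPM in the OGT-KO-labelled library with no recovery, and at 299 and 682 CPM after 7 days. The ratios were 2.60 (2.54 to 2.67) and 2.28 (2.21 to 2.35), with log2 differences of 1.38 and 1.19. Median-ratio scaling left differences of 0.66 and 0.50, below 2-fold.

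Gclm (ENSMUSG00000028124) was at 212 CPM in control and 176 CPM in the OGT-KO-labelled library with no recovery, and at 197 and 201 CPM after 7 days. With no recovery its ratio was 0.831 (0.796 to 0.867), and after 7 days it was 1.02 (0.978 to 1.07). Less the median gene, Gclm was lower under the label OGT-KO at both times, by log2 differences of -0.77 and -0.45, and its small difference after 7 days of 0.03 at the deposited scaling turned to -0.65 with median-ratio scaling. There were 1.94 Gclc reads for each Gclm read in control (1.88 to 2.02) and 6.09 in the OGT-KO-labelled library with no recovery (5.89 to 6.30), and 1.52 (1.46 to 1.58) and 3.40 (3.29 to 3.51) after 7 days. The subunits of 1 enzyme thus had unequal differences between the labels under any scaling. The ratio of Gclc to Gss, which encodes the synthetase of the next step, differed much less between the labels, at 5.21 and 5.44 with no recovery and 3.74 and 3.45 after 7 days.

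Slc7a11 (ENSMUSG00000027737), the cystine importer that supplies cysteine for glutathione, was close to absent from the controls. It had 0 reads in control with no recovery, which allows up to 0.141 CPM, and 1 read in control after 7 days. In the OGT-KO-labelled libraries it had 1187 reads (51.9 CPM) with no recovery and 823 reads (36.5 CPM) after 7 days. Against the floor of 3 reads in the control library, it was at least 368-fold higher with no recovery. After 7 days the ratio was 728, with a counting interval of 130 to 28804 that the single control read makes wide. It stood at place 4 and place 20 of the 8963 genes in order of the label difference. As it passed the filter through the OGT-KO-labelled libraries alone, it had to differ between the labels. Its partner in the transporter, Slc3a2, which is shared with other amino acid carriers, was present in the controls, at 42.6 and 40.2 CPM, and was at 129 and 80.6 CPM in the OGT-KO-labelled libraries. There were 0.402 Slc7a11 reads for each Slc3a2 read in the OGT-KO-labelled library with no recovery and 0.452 after 7 days.

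**Figure D2:**
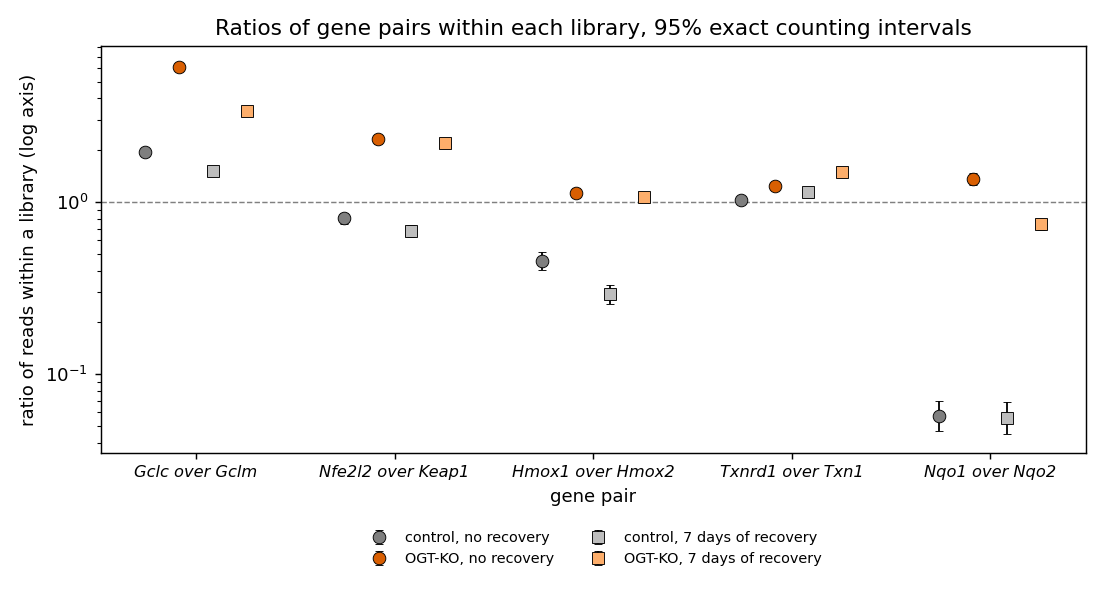
Ratio of the reads of a pair of genes within each library on a log axis, with 95% exact counting intervals, grey for control, orange for OGT-KO, circles for no recovery and squares for 7 days. With no recovery, Gclc over Gclm was 1.94 in control and 6.09 under the label OGT-KO and Nfe2l2 over Keap1 was 0.805 and 2.31, whereas Txnrd1 over Txn1 stayed between 1.03 and 1.5. These ratios do not depend on the scaling of a library.

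Of the thiol-repair genes, Srxn1 (ENSMUSG00000032802), encoding sulfiredoxin, which restores overoxidized peroxiredoxins, stood furthest from control after Slc7a11. It was at 48.7 CPM in control and 1018 CPM in the OGT-KO-labelled library with no recovery, and at 41.7 and 506 CPM after 7 days. The ratios were 20.9 (19.6 to 22.3) and 12.1 (11.3 to 13.0), and the log2 differences 4.36 and 3.57, at place 49 and place 186 of the 8963 genes. Srxn1 went from a level near that of Keap1 per length in control with no recovery to the highest of the 10 genes in the OGT-KO-labelled library.

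Txnrd1 (ENSMUSG00000020250), the cytosolic thioredoxin reductase, was at 169 CPM in control and 315 CPM in the OGT-KO-labelled library with no recovery, and at 170 and 324 CPM after 7 days. Its ratios of 1.86 (1.79 to 1.94) and 1.90 (1.82 to 1.98) stayed under 2-fold, with log2 differences of 0.89 and 0.92. These were 0.39 and 0.44 less the median gene, and 0.18 and 0.24 with median-ratio scaling. Txn1 (ENSMUSG00000028367), thioredoxin itself, was at 165 and 255 CPM with no recovery and at 149 and 216 CPM after 7 days. Its log2 differences of 0.63 and 0.53 were close to those of the median gene and turned to -0.09 and -0.15 with median-ratio scaling. The reductase had a somewhat larger difference than its substrate: there were 1.03 Txnrd1 reads for each Txn1 read in control and 1.24 in the OGT-KO-labelled library with no recovery, and 1.14 and 1.5 after 7 days.

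Hmox1 (ENSMUSG00000005413), the inducible heme oxygenase, was higher under the label OGT-KO. It was at 20.4 CPM in control and 100.02 CPM in the OGT-KO-labelled library with no recovery, and at 16.0 and 71.5 CPM after 7 days. The ratios were 4.91 (4.43 to 5.45) and 4.46 (3.96 to 5.05), with log2 differences of 2.24 and 2.09. Against the constitutive enzyme Hmox2, Hmox1 had 0.455 reads for each in control and 1.13 in the OGT-KO-labelled library with no recovery, and 0.291 and 1.07 after 7 days.

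**Figure D3:**
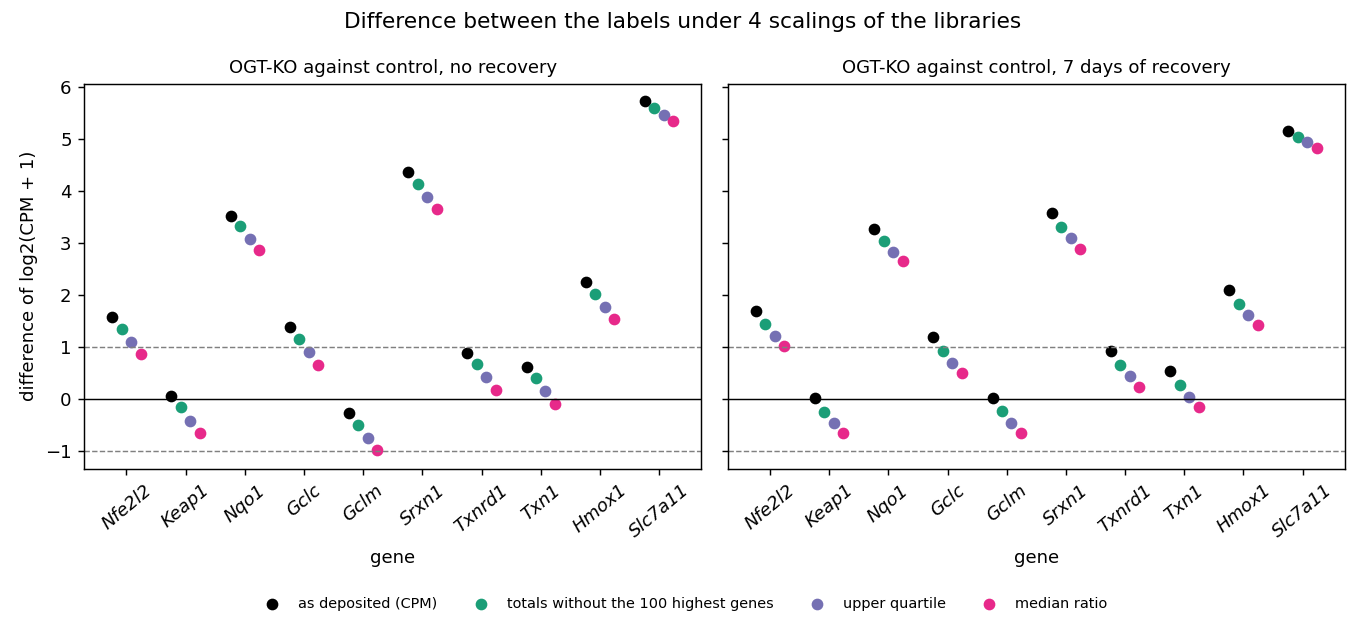
Difference of log2(CPM + 1) between the OGT-KO-labelled library and the control library for each of the 10 genes, with no recovery on the left and after 7 days on the right, under 4 scalings of the libraries. Dashed lines mark 2-fold. Slc7a11, Srxn1, Nqo1 and Hmox1 lay above 2-fold under every scaling at both times, whereas Keap1, Txn1 and, after 7 days, Gclm crossed 0.

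Under median-ratio scaling, 4 of the 10 genes were at least 2-fold higher with no recovery (Slc7a11, Srxn1, Nqo1 and Hmox1), where 935 of the 8963 genes were, and 5 after 7 days (the same and Nfe2l2), where 1038 were. Slc7a11 and Nqo1, which passed the filter through the OGT-KO-labelled libraries, are in both counts, so the filter fixed part of them. Higher genes made up 81.1% of all called genes with no recovery and 84.3% after 7 days as deposited, and 40.4% and 49.6% under median-ratio scaling.

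Per kilobase of exon (GENCODE M21 on GRCm38, all exons of a gene merged), the order of the levels differed between the labels. In control with no recovery it ran from Txn1 at 157 CPM per kilobase and Gclc at 109 through Gclm at 33.7, Txnrd1 at 23.9, Srxn1 at 17.3, Keap1 at 15.1, Nfe2l2 at 15.0 and Hmox1 at 11.6 to Nqo1 at 3.18 and Slc7a11 at 0. The levels of Keap1 and Nfe2l2 could not be told apart at this depth. In the OGT-KO-labelled library with no recovery, Srxn1 led at 361, followed by Gclc at 285, Txn1 at 243, Hmox1 at 57.1, Nfe2l2 at 45.1, Txnrd1 at 44.5, Nqo1 at 43.3, Gclm at 28.0, Keap1 at 15.8 and Slc7a11 at 3.73. Here Nfe2l2, Txnrd1 and Nqo1 could not be told apart from each other at this depth. The merged exons of Slc7a11 were long, at 13922 bases against 1051 for Txn1, which lowers its level per length.

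After 7 days the control order was the same except that Keap1 (15.2) stood above Srxn1 (14.8), though these levels could not be told apart at this depth. In the OGT-KO-labelled library after 7 days, Txn1 led again at 206, with Gclc at 181 and Srxn1 at 179 next to each other and Slc7a11 still last at 2.62.

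Recovery differences were mostly within 2-fold. In control, no gene of the 10 was 2-fold higher or lower after 7 days than with no recovery, where 0.245% of all genes were higher and 0.960% lower. The log2 differences in control ran from -0.46 for Gclc to 0.07 for Slc7a11. In the OGT-KO-labelled libraries, 1.04% of all genes were higher and 0.435% lower, and among the 10 genes only Srxn1 passed 2-fold, at 506 CPM after 7 days against 1018 CPM with no recovery, a ratio of 0.497 (0.486 to 0.509) and a log2 difference of -1.01. This value lies at the threshold, and it was not called under upper-quartile or median-ratio scaling, without the 100 highest genes in the totals, or with a pseudocount of 10.

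The other genes in the OGT-KO-labelled libraries had recovery differences of -0.65 for Gclc, -0.50 for Slc7a11, -0.48 for Hmox1, -0.38 for Nqo1, -0.24 for Txn1, -0.10 for Nfe2l2, -0.03 for Keap1, 0.04 for Txnrd1 and 0.19 for Gclm. Srxn1, Slc7a11, Hmox1 and Nqo1, the genes furthest above control, were lower after recovery, yet remained at 506, 36.5, 71.5 and 51.7 CPM, over 4-fold above their controls as deposited. With median-ratio scaling the difference of Hmox1 after 7 days was 1.43, which is under 4-fold. Nfe2l2 differed from control by 0.13 more after 7 days than with no recovery, whereas Srxn1 differed by 0.79 less. With 1 library per condition these changes over time could not be compared with the spread between mice.

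Around these genes, 98 others were listed in 10 groups by role. Of the 85 that were compared, 24 were at least 2-fold higher under the label OGT-KO at both times (28.2%) and 2 were lower (2.4%), beside 19.2% and 3.74% of all genes. Under median-ratio scaling 13 were higher (15.3%) and 13 lower (15.3%), beside 9.35% and 10.4% of all genes, so the balance of the list depended on the scaling. The 13 higher genes were then 5 glutathione S-transferases, 4 other NRF2 targets, 2 genes of NADPH supply, Gpx3 and Slc48a1. Under 10 CPM in both controls were 3 glutathione S-transferases, 3 other NRF2 targets and 2 thioredoxin and peroxiredoxin genes. So was 1 gene each of the glutathione cycle, the glutathione peroxidases and NADPH supply. These genes passed the filter through the OGT-KO-labelled libraries and had to be higher, so the filter fixed part of the higher counts.

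**Figure D4:**
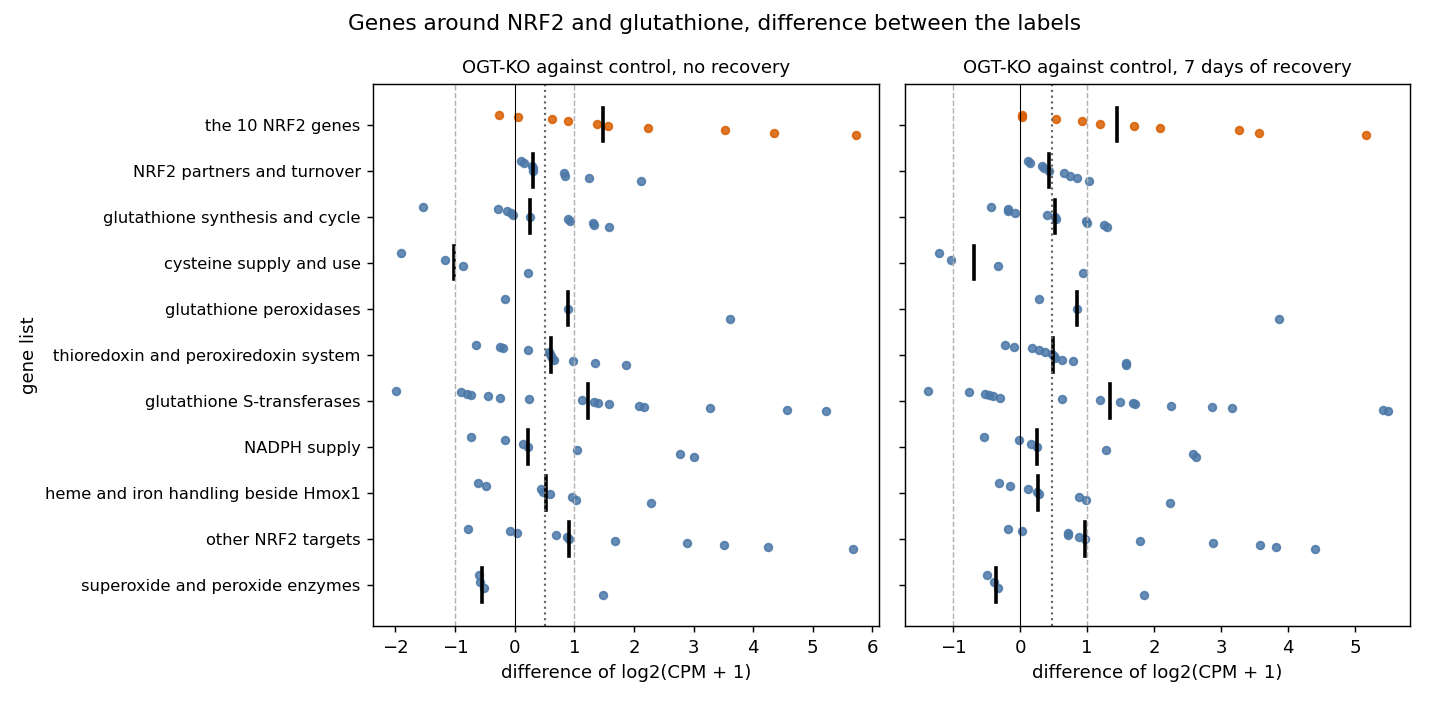
Difference of log2(CPM + 1) between the OGT-KO-labelled library and the control library for every compared gene of the 11 lists, with no recovery on the left and after 7 days on the right. Black bars are list medians, the dotted line is the median of all 8963 genes (0.51 and 0.48) and dashed lines mark 2-fold. The 10 NRF2 genes, the glutathione S-transferases and the other NRF2 targets reach above 4 with no recovery. The lists of cysteine supply and use and of superoxide and peroxide enzymes have medians below 0.

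Among 9 partners and turnover factors of NRF2, only Mafk was at least 2-fold higher at both times. Mafk, a small MAF partner, was at 16.0 CPM in control and 72.6 CPM in the OGT-KO-labelled library with no recovery, and at 20.1 and 41.7 CPM after 7 days, where its difference of 1.02 became 0.36 with median-ratio scaling. The median of the group was 0.31 and 0.42, below that of all genes. The abundant members Nfe2l1 and Mafg were within 2-fold at both times.

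In the cycle of glutathione synthesis and use, 1 of 11 genes passed 2-fold at both times and the median was 0.26 and 0.53. This was Gss, glutathione synthetase, at 79.0 and 197 CPM with no recovery and 80.1 and 198 CPM after 7 days, with log2 differences of 1.31 and 1.29 that were 0.60 and 0.61, below 2-fold, with median-ratio scaling. Of 4 genes of cysteine supply and use, Cbs, cystathionine beta-synthase of the transsulfuration path, was at least 2-fold lower at both times. It was at 643 and 287 CPM with no recovery and 622 and 304 CPM after 7 days. The next enzyme, Cth, was at 341 and 398 CPM and at 283 and 543 CPM, and its difference of 0.22 with no recovery became -0.50 with median-ratio scaling.

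Of 3 glutathione peroxidases compared, Gpx3, the secreted form, was higher, at 6.02 and 85.2 CPM with no recovery and 3.81 and 68.6 CPM after 7 days. The abundant cytosolic Gpx1 was at 1967 and 1765 CPM and at 1586 and 1929 CPM, within 2-fold, and Gpx4 had differences of 0.90 and 0.85. With median-ratio scaling the differences of Gpx4 were 0.18 and 0.16, and those of Gpx1 were -0.88 and -0.40. In the thioredoxin and peroxiredoxin group 2 of 12 genes were higher: Txnip, an inhibitor of thioredoxin, at 42.9 and 111 CPM and then 48.9 and 148 CPM, and Sesn2 at 9.27 and 36.6 CPM and then 5.91 and 19.6 CPM. With median-ratio scaling neither passed 2-fold at both times, at 0.64 and 0.91 for Txnip and 1.19 and 0.95 for Sesn2. Gpx3 and Sesn2, under 10 CPM in both controls, passed the filter through the OGT-KO-labelled libraries and had to be higher. Of the substrates of sulfiredoxin, the abundant Prdx1 was within 2-fold at both times, with differences of 0.23 and 0.28 that became -0.49 and -0.41 with median-ratio scaling. Srxn1 thus differed far more than Prdx1.

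The glutathione S-transferases, which join glutathione to reactive compounds, held 9 of 16 genes that were higher and 1 that was lower at both times, with a median of 1.23 and 1.34. With median-ratio scaling 5 were higher and 5 lower at both times, so only part of the family was higher under either scaling. Under 10 CPM in both controls were 3 of the 16, which passed the filter through the OGT-KO-labelled libraries and had to be higher. Gstm3 was at 95 and 2272 CPM with no recovery and 98.8 and 4248 CPM after 7 days. Gsta1 was at 2.63 and 134 CPM and then 1.65 and 118 CPM, and the microsomal Mgst3 at 8.19 and 88.4 CPM and then 8.56 and 84.9 CPM. Gstk1 was the gene that was lower, at 89.0 and 21.7 CPM and then 84.2 and 31.8 CPM. Members of the Gsta and Gstm families resemble each other closely, and how reads on several copies were assigned was not given, so single members are uncertain.

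For NADPH, the reductant used by thioredoxin reductase, glutathione reductase and NQO1, 3 of 7 genes were higher. Pgd and G6pdx, the dehydrogenases of the pentose phosphate pathway, were at 46.3 and 382 CPM and at 5.22 and 41.6 CPM with no recovery, and at 47.0 and 285 CPM and at 5.11 and 36.7 CPM after 7 days. G6pdx, under 10 CPM in both controls, passed the filter through the OGT-KO-labelled libraries and had to be higher. Tkt, of the same pathway, had differences of 1.04 and 1.28, which were 0.32 and 0.60 with median-ratio scaling. Idh1, another NADPH source, had differences of -0.72 and -0.54, which were -1.44 and -1.23, past 2-fold, with median-ratio scaling.

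Beside Hmox1, 1 of 8 genes of heme and iron handling was higher, the heme transporter Slc48a1, at 57.6 and 285 CPM with no recovery and 44.9 and 215 CPM after 7 days. Of 11 other known NRF2 targets 5 were higher and none lower at both times, beside 19.2% and 3.74% of all genes. With median-ratio scaling 4 were higher. Cbr3, Abcc4 and Ptgr1 were under 10 CPM in both controls, passed the filter through the OGT-KO-labelled libraries and had to be higher. Cbr1 and Cbr3, carbonyl reductases, were at 48.6 and 368 CPM and at 0.470 and 74.2 CPM with no recovery, and Abcc4, an export pump, at 3.53 and 84.9 CPM. Ptgr1, a reductase of reactive aldehydes and ketones, was at 2.82 and 42.6 CPM. Osgin1, often counted among NRF2 targets, was at 365 and 347 CPM with no recovery and 522 and 531 CPM after 7 days, so the targets were not of one pattern.

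Of the 4 superoxide and peroxide enzymes, Sod3, the extracellular form, was higher, at 42.6 and 122 CPM with no recovery and 22.1 and 82.3 CPM after 7 days, with differences of 1.49 and 1.85 that were 0.78 and 1.18 with median-ratio scaling. The abundant Cat, Sod1 and Sod2 had negative differences between -0.33 and -0.60 at both times, within 2-fold as deposited and past 2-fold with median-ratio scaling.

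Markers of other cell types differed between the same libraries. In bulk liver, fewer cells of a type and less RNA per cell cannot be told apart. All 5 bile duct markers, all 6 stellate cell markers and all 7 compared macrophage markers (of 9 listed) were at least 2-fold higher under the label OGT-KO at both times, and with median-ratio scaling all of the bile duct and stellate markers and 5 of the macrophage markers were. As 3 of the bile duct and 2 of the stellate markers were under 10 CPM in both controls, they passed the filter through the OGT-KO-labelled libraries and had to be higher. Summed levels were taken over all listed markers in the table, with all 9 for macrophage. With no recovery they went from 53.7 to 1148 CPM (bile duct), 87.1 to 1248 CPM (stellate) and 253 to 1057 CPM (macrophage). After 7 days they went from 69.6 to 1457, 63.2 to 1599 and 90.1 to 760 CPM. In the OGT-KO-labelled library with no recovery, Spp1 alone held 977 CPM of the bile duct sum and Col1a1 875 CPM of the stellate sum. Of 7 hepatocyte markers 3 were at least 2-fold lower at both times, and 5 were with median-ratio scaling. The hepatocyte sum went from 70883 to 49996 CPM with no recovery and from 77709 to 61998 CPM after 7 days. Alb alone held 47845 and 41362 CPM of it with no recovery. Endothelial markers summed to 211 and 403 CPM and then 143 and 297 CPM, with 1 of 5 higher at both times, and the 3 lymphocyte markers in the table to at most 4.81 CPM. No marker in the table was at 0 in any library. Their part in the differences of the 10 genes was not tested.

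Over recovery, all 7 compared macrophage markers were at least 2-fold lower after 7 days in control, with a median log2 difference of -1.42, where Hmox1, which macrophages also express, was at -0.33. In the OGT-KO-labelled libraries none of the 7 passed 2-fold and their median was -0.50, beside -0.48 for Hmox1.

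The genes whose pattern over the 4 libraries was most like a member were taken by the root mean square difference of centred log2(CPM + 1). For Nqo1 they were Enc1 (0.0520), Me2 (0.0580) and Lama2 (0.0696), and the nearest of the other 9 genes, Srxn1, stood at place 203. Nfe2l2 was nearest to Reep5 (0.0154), Clcn5 (0.0227) and C2cd5 (0.0237), and Keap1 to Arl6ip4 (0.0123), Trappc13 (0.0126) and Pex2 (0.0138). For Nfe2l2 the nearest of the 10 was Gclc at place 913, and for Keap1 it was Gclm at place 1063. With 4 libraries many genes share a pattern this closely, and likeness here describes these libraries only.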

How the data were processed

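mRNA-seq libraries (Tecan universal plus kit) were made from TRIzol-isolated mouse liver RNA, 4 libraries of 3 pooled mice each, 1 per condition. The authors deposited CPM values for 13903 genes in a table named for DESeq2 normalization. Each column sums to 1000000, and 100.0% of the values are within 0.1 of a whole read, so reads were recovered. The submitters' processing notes name GRCm39, STAR and DESeq2, while counter, strand and filter were not given in the sources used here. Differences are of log2(CPM + 1) among 8963 genes averaging 10 CPM or more, called at 2-fold, with exact 95% counting intervals on reads. With 1 library per condition no p-value was given. An exact binomial test on the reads of all 13903 genes was run with Benjamini-Hochberg adjustment at 0.05. It compares libraries and not conditions, so its counts of genes are not given.

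Members and lists were chosen with earlier results of these data known, and the read ratios of gene pairs and 2 of the motifs after values or sequences were seen. Besides the 10 members, up to 4 genes per list were named by the largest mean label difference past 2-fold at both times, and abundant genes (mean at least 100 CPM) within 2-fold; Bach1, Slc3a2, Nqo2, Hmox2 and Gstk1 were named after their values were seen. Of the listed genes, Mgst2 and Trim16l were not analysed here. Gene lengths came from GENCODE M21 on GRCm38 and promoters from RefSeq on GRCm38.p6. No coordinates were taken from the deposited table. Alternatives were pseudocounts of 0.1 and 10, no filter or a mean of at least 50, 3 other scalings and calls at 1.5-fold and 4-fold. The listed pathway genes were recounted under median-ratio scaling after values were seen. Steps were tested on simulated data. Python 3.11.15, numpy 2.4.6, pandas 2.3.3, scipy 1.17.1 and matplotlib 3.10.9 were used.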

Additional observations from a re-analysis of the deposited data

Results flagged for a closer look

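The label difference of 3 genes had opposite directions at the 2 times or in the 2 labels over recovery, and with 1 library per condition none of these differences was tested. Gclm was lower in the OGT-KO-labelled library with no recovery and level with control after 7 days, so that its label difference was 0.30 higher after 7 days on the scale of log2(CPM + 1). Over recovery it went from 212 to 197 CPM in control and from 176 to 201 CPM in the OGT-KO-labelled libraries. Keap1 had recovery differences of 0.01 in control and -0.03 in the OGT-KO-labelled libraries, a change of its label difference of -0.038, which lies within the counting intervals of its ratios. Slc7a11 had recovery differences of 0.07 in control and -0.50 in the OGT-KO-labelled libraries, a change of -0.57, where the control value rests on 0 reads and 1 read.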

How the results depend on the processing

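Of 89 counts of the 10 genes recomputed under the alternatives, 81 were within 1.5 times the reported count and 8 were not. Many were 0 as reported and under the alternatives, and 4 against a reported 6 passes as within this limit. The higher count with no recovery was 4 with median-ratio scaling, without Nfe2l2 and Gclc. With a mean of at least 50 it was 4, without Nqo1 and Slc7a11. The count of genes lower after recovery in the OGT-KO-labelled libraries was 1 (Srxn1). It was 0 with a pseudocount of 10, with upper-quartile scaling, with median-ratio scaling, without the 100 highest genes in the totals and at 4-fold, and 2 at 1.5-fold (Gclc and Srxn1). The count of genes whose label difference differed 2-fold between the times was 0. It was 1 with a pseudocount of 0.1 (Slc7a11) and 1 at 1.5-fold (Srxn1). The cause of these changes was not tested. A change of pseudocount cannot alter the sign of a difference. The 40 differences recomputed with each pseudocount (0.1 and 10) thus had to keep theirs. Of 200 differences of single genes, these included, 187 kept their sign. The 13 that did not belonged to Keap1, Gclm and Txn1, with 4 of 40 under upper-quartile scaling, 6 under median-ratio scaling and 3 without the 100 highest genes. None of them had been called. Higher genes made up 55.2% and 62.1% of all called genes under upper-quartile scaling and 70.7% and 73.4% without the 100 highest genes, against 81.1% and 84.3% as deposited. The binomial test on reads removed no called gene. At this depth a 2-fold difference in a gene averaging 10 CPM or more could hardly fail it, so this outcome gave no support. No paired analysis was possible because each condition has 1 library, and for the same reason no replicate could be left out. Depth limited Slc7a11 in the controls, at 0 reads and 1 read.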
